A study of Mus musculus with 8 samples.

Results

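The genes described here are 43 genes of the mouse cell cycle, measured by RNA sequencing in cardiac fibroblasts 4 weeks after pressure overload. They were taken by symbol from a list drawn up for the cell cycle and DNA replication, with Mki67 as the marker of cycling cells. All 43 were found, each on 1 row, among the 34399 gene symbols of the series. By role they fell into 9 G1 genes (cyclins of the D and E type, their kinases and E2f1), 3 inhibitors of cyclin-dependent kinases (CDKs), 10 genes of DNA replication and nucleotide supply, and 21 genes of G2 and mitosis.

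A fibroblast that leaves rest first makes D-type cyclins, which bind the kinases CDK4 and CDK6 and inactivate the retinoblastoma protein, so that E2F factors can switch on the genes of DNA synthesis. Genes of G2 and mitosis follow later in the cycle, many through a DNA element called the CHR, which is read by the DREAM and MuvB complexes, and through CCAAT boxes bound by NF-Y. In the pressure-overloaded heart resident fibroblasts are known to proliferate early and then to differentiate into matrix-producing myofibroblasts, and TGF-beta, which signals through the receptors encoded by Tgfbr1 and Tgfbr2 to the factors encoded by Smad2 and Smad3, is known to halt growth in many cell types and to favour it in some mesenchymal ones.

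The study asked how fibroblasts of the stressed heart change when this pathway is interrupted. The 8 libraries came from mice 8 to 10 weeks old at surgery, in which transverse aortic constriction (TAC) loaded the left ventricle for 4 weeks. All mice carried a tamoxifen-inducible Cre (MerCreMer) and a Cre-dependent eGFP reporter in the Rosa26 locus, and all received tamoxifen, injected at 100 mg/kg on 2 days and then given in chow at 40 mg/kg. GFP-positive cells were sorted from the ventricles. The 4 groups, of 2 libraries each, were the Postn-Cre controls (MerCreMer in the Postn locus, libraries HK3 and HK4), the Smad2/3 DKO (the same driver with Smad2 and Smad3 flox/flox, HK15 and HK16), the Tcf21-Cre controls (MerCreMer in the Tcf21 locus, HK6 and HK7) and the Tgfbr1/2 DKO (that driver with both receptor genes flox/flox, HK2 and HK4). DKO means double knockout, and HK4 names 2 different libraries. The labels list no floxed allele for the controls, and no sham or untreated library is among the 8. Recombination marks cells that express, or once expressed, the driver gene, so the Postn-Cre groups hold cells that activated Postn and the Tcf21-Cre groups hold the Tcf21 lineage. The driver changed together with the sequencing run named in the library titles: the Postn-Cre groups came from the earlier run number and the Tcf21-Cre groups from the later one. Whether a library is 1 animal or a pool is not in the labels, and the p-values therefore reflect variation among these libraries alone, which may be technical.

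Library totals ran from 21477805 to 32594664 estimated counts, so that 3 counts corresponded to 0.0920 to 0.140 counts per 1000000 (CPM). Fibroblast markers summed to between 14632 and 33637 CPM in every library, against 144 to 529 CPM for endothelial and 17.4 to 167 CPM for myeloid markers. Pericyte and smooth muscle markers summed to between 342 and 1397 CPM, and cardiomyocyte markers to between 119 and 226 CPM. None of the 4 targeted genes was called in its own knockout by edgeR: the log2 differences were -0.19 for Smad2 and -0.26 for Smad3 in the Smad2/3 DKO, and -0.24 for Tgfbr1 and 0.25 for Tgfbr2 in the Tgfbr1/2 DKO (adjusted p from 0.533 to 0.747). Counts over a whole gene need not show the loss of single floxed exons, so this neither checks nor contradicts the labels. Xist, the RNA of the inactive X chromosome, was at 3.65 and 2.18 CPM in the Postn-Cre controls and at 276 and 75.3 CPM in the Smad2/3 DKO. The labels give no sex for these mice, and its part in the results was not tested. In bulk RNA, fewer cycling cells and less RNA per cycling cell cannot be told apart, and this holds for every gene below.

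The promoters of 5 of the genes are shown because 4 of them (Mki67, Cdk6, Mcm2 and Hjurp) changed in a knockout and because Pcna and Hjurp were the most abundant replication and mitosis genes by CPM. Each window, from RefSeq on GRCm38.p6, runs 5′ to 3′ on the gene's own strand from 250 bases before the annotated start to 50 bases after it. Capitals mark 4 motifs searched on both strands: the CHR (TTTGAA), the CCAAT box (CCAAT), an E2F site (TTTNNCGC) and the core of the SMAD box (CAGAC). No 2 matches overlap in these windows. The windows are chr7:135716330-135716629 for Mki67, chr5:3343643-3343942 for Cdk6, chr6:88898731-88899030 for Mcm2, chr1:88277530-88277829 for Hjurp and chr2:132253131-132253430 for Pcna. Cdk6 is on the plus strand and the other 4 are on the minus strand.
Mki67: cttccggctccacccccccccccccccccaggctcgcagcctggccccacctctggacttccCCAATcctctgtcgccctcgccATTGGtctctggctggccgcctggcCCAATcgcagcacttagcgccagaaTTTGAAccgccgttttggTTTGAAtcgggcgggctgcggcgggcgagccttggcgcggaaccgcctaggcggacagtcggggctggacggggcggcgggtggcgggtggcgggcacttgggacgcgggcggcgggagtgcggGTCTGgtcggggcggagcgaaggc
Cdk6: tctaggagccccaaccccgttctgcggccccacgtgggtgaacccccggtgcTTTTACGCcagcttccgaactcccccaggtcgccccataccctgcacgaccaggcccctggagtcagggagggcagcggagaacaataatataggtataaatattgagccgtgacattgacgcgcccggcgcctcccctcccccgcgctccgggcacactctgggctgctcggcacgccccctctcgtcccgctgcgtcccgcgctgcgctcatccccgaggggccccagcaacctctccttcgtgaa
Mcm2: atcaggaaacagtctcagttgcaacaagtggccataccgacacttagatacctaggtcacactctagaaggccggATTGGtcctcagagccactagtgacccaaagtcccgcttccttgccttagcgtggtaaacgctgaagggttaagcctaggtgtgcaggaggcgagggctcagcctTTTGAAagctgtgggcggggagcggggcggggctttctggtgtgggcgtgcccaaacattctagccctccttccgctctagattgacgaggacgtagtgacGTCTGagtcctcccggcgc
Hjurp: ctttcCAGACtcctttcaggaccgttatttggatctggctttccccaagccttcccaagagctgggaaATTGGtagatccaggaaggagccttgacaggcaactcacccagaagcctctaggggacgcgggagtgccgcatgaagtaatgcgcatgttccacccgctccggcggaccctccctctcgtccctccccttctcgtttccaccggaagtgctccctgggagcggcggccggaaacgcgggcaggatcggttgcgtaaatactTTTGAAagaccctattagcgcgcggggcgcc
Pcna: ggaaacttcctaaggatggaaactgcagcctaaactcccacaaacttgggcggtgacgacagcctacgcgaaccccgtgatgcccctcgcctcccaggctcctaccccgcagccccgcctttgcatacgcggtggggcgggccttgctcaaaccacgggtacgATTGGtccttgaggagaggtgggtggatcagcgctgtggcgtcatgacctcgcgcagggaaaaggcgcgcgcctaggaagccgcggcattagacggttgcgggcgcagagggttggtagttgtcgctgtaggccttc

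The Mki67 window holds 3 CCAAT boxes followed by 2 CHR elements, whose first bases lie 116 and 98 bases before the start. Hjurp and Mcm2 each hold 1 CHR and 1 CCAAT box, with the CHR 19 bases after the start in Hjurp and 70 bases before it in Mcm2. Cdk6 holds 1 E2F site and none of the other motifs, and Pcna holds 1 CCAAT box alone. The SMAD box core occurs once each in Mki67, Mcm2 and Hjurp.

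Windows were on hand for 35 of the 43 genes, 40 windows in all since 5 genes have a second start. The mitosis genes share the CHR: 14 of their 18 windows (77.8%) hold it, as do 17.9% of all 32851 promoter windows of the table. Among the 10 replication windows the CHR occurs in 1, and it occurs in none of the 7 windows of the G1 genes. The CCAAT box is in 17 of 18 mitosis windows and 9 of 10 replication windows, against 37.4% of all windows. The E2F site is in 5 of 10 replication windows and 1 of 18 mitosis windows, against 5.17% of all. The short SMAD box core is in 18 of the 40 windows (45.0%) and in 49.6% of all windows. These are matches of letters, and no binding was measured. Ccnd1, Ccnd2, Ccna2, Ccne2, Aurkb, Kif20a, Mcm4 and Tpx2 have no window in the table.

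Most cell cycle transcripts were scarce in these cells. Of the 43 genes, 14 stayed below 10 CPM in every library, 4 of them below 3 CPM, and only 11 reached 10 CPM in all 8 libraries. Of the 21 mitosis genes, 11 were below 10 CPM throughout. Per kilobase of exon, the mean level over the 8 libraries was highest for Cdkn1a (161 CPM per kb), which encodes the CDK inhibitor p21 and is a target of p53, followed by Pcna (83.7), the sliding clamp of DNA polymerases. Ccnd2 was at 20.5 CPM per kb, Ccnd1 at 15.4 and Cdk4 at 13.5. Mki67, whose product coats mitotic chromosomes, was at 2.79 CPM per kb, and Cdk1, the kinase that drives mitosis, at 0.257.

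**Figure D1:**
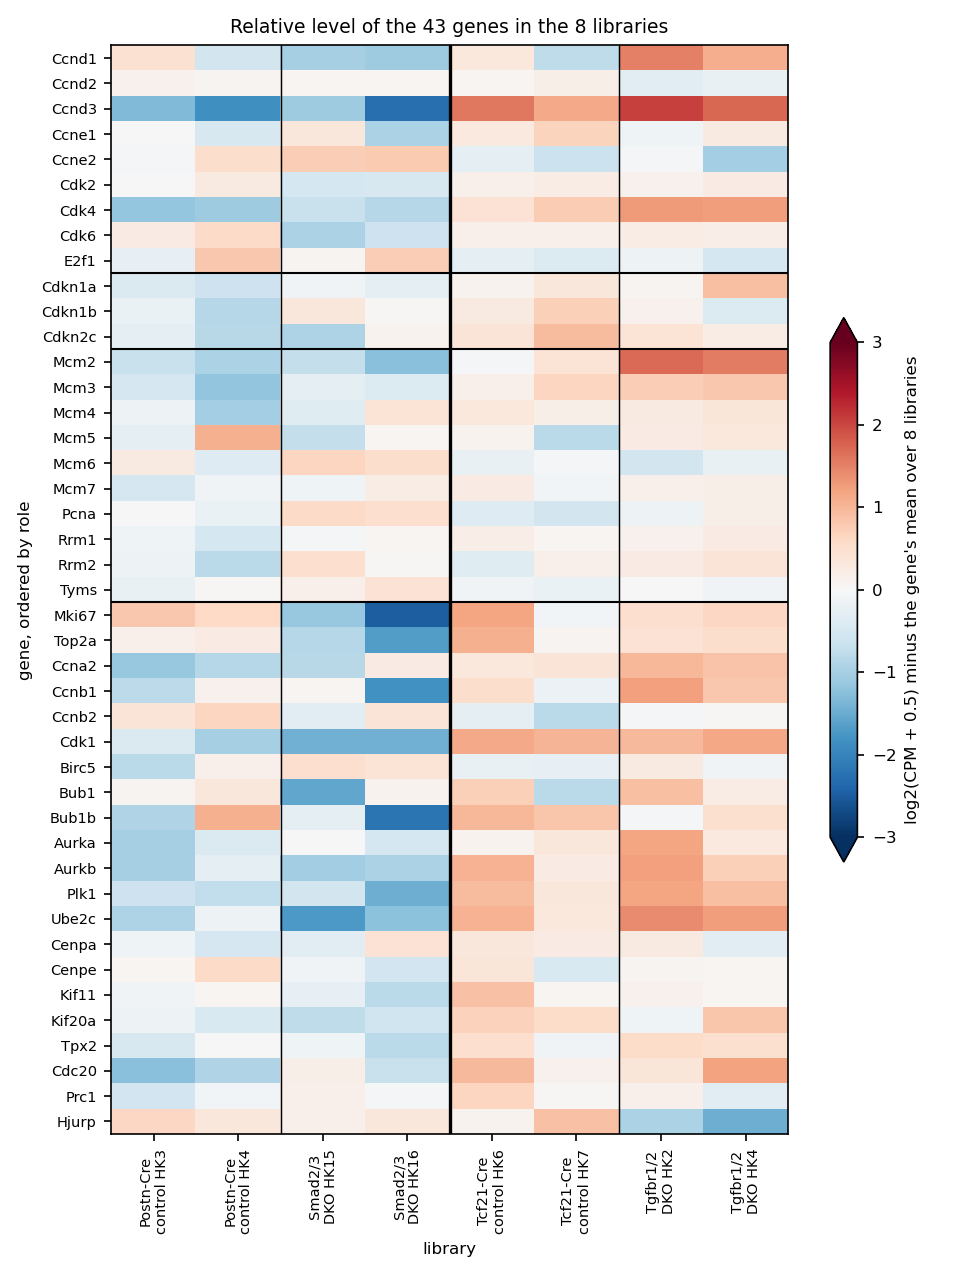
Relative level of the 43 genes (rows, by role) in the 8 libraries (columns): colour gives log2(CPM + 0.5) minus the gene's mean over the libraries, from -2.48 to 2.06. The darkest blue cell is Mki67 in Smad2/3 DKO HK16, and Ccnd3 and Cdk4 divide the libraries by run and driver.

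In the Smad2/3 DKO the transcripts of Mki67 and of the G1 kinase gene Cdk6 fell, and no gene of the 43 rose. Mki67 fell by 2.50 ± 0.43 (SE) on the log2 scale and Cdk6 by 1.27 ± 0.23. Of the 43 genes, 41 had enough counts to be tested, and 2 passed, both lower, in edgeR's quasi-likelihood test with Benjamini-Hochberg adjustment over all 15764 genes tested. The background was 1.31% of all genes called in either direction, 0.450% called higher and 0.856% called lower. By unadjusted p under 0.05 the count was 1 higher and 4 lower, where 13.6% of all genes passed that limit, so this count is near the background. DESeq2, which called more genes in all than edgeR here, called 1 higher (Pcna) and 4 lower (Mki67, Cdk6, Ccnd1 and Top2a). The shares above are those of edgeR.

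Mki67 (ENSMUSG00000031004, chr7:135689784-135716361, minus strand, GRCm38) was at 39.2 CPM in control HK3 and 33.8 CPM in control HK4, and at 9.79 CPM in HK15 and 3.59 CPM in HK16 of the Smad2/3 DKO. These are 1018, 776, 250 and 77 counts, and the groups do not overlap. The adjusted p was 0.0169, and the change ran from -3.39 to -1.96 when each library was left out in turn, called each time. Against the sum of the 21 mitosis genes, Mki67 made up 23.9% and 19.4% in the controls and 8.10% and 3.16% in the knockouts.

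Top2a, which encodes the topoisomerase that untangles replicated DNA, measured 12.3 and 13.1 CPM in control cells and 5.80 and 3.07 CPM in knockout cells. The groups do not overlap, and the log2 difference was -1.57 ± 0.44, which missed the threshold (adjusted p = 0.119 in edgeR). Hjurp, the chaperone that loads the centromere histone CENP-A, had control levels of 55.5 and 45.7 CPM and knockout levels of 40.2 and 46.0 CPM, ranges that overlap (-0.29 ± 0.23). Cdk1 had 13 and 4 counts in the controls and 0 in both knockouts, where 0 counts allow up to 0.118 and 0.140 CPM. It was too low to test.

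The remaining mitosis genes lay on both sides of 0 and none of them passed in edgeR. Of the 19 mitosis genes tested, 1 passed, 13 were below 0 and 6 above it, with a median log2 difference of -0.50 beside 0.01 for all genes tested. Without Mki67 the median of the 18 was -0.49, with 0 called in edgeR, 1 at an unadjusted p under 0.05 and 1 in DESeq2. In 4 of the 19 both knockouts lay above both controls, and in 7 both lay below. Over all genes tested the shares without overlap were 25.5% higher and 18.9% lower. Ccna2, the S and G2 cyclin, stood at 2.04 and 2.61 CPM in control libraries, against 2.62 and 6.10 CPM in knockout libraries. Cdc20, an activator of the anaphase-promoting complex, measured 0.846 and 1.22 CPM in control cells and 3.13 and 1.54 CPM in knockout cells. Both lay on the opposite side from Mki67, with standard errors of 0.64 and 0.80 around differences of 0.85 and 1.12. The summed level of the 21 genes was 164 and 174 CPM in control libraries, with 121 and 113 CPM in knockout libraries. Without Mki67 it was 124 and 140.0 CPM against 111 and 109.8 CPM, and without Mki67 and Hjurp 69.0 and 94.3 CPM against 70.8 and 63.7 CPM, which overlap.

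Cdk6 (ENSMUSG00000040274, chr5:3341485-3531008, plus strand, GRCm38), the partner of the D-type cyclins, was at 66.6 and 83.5 CPM in the Postn-Cre controls and at 28.8 and 35.9 CPM in the Smad2/3 DKO. Both knockouts lie below both controls (adjusted p = 0.0235), but without DKO HK15 the call was lost, at a difference of -1.11 and an adjusted p of 0.169. Its paralogue Cdk4 had control levels of 15.5 and 16.5 CPM and knockout levels of 21.9 and 19.3 CPM, a difference of 0.31 ± 0.30 (adjusted p = 0.730). Of the D-type cyclins, Ccnd1 stood at 80.8 and 39.8 CPM in control libraries, against 29.5 and 27.6 CPM in knockout libraries. Control HK4 was nearer to the knockouts than to control HK3, and the difference of -1.14 ± 0.32 did not pass (adjusted p = 0.114), though without control HK4 it was -1.57 and passed (adjusted p = 0.00271). Ccnd2, the most abundant of the 3 per kilobase, measured 211 and 201 CPM in control cells and 198 and 201 CPM in knockout cells (-0.11 ± 0.15). Ccnd3 had control levels of 7.12 and 4.87 CPM and knockout levels of 8.62 and 3.49 CPM, which overlap (-0.05 ± 0.54, a sign that turned without scaling factors). Among the other G1 genes, Cdk2, the partner of E-type cyclins, differed by -0.77 ± 0.51, and E2f1 by 0.03 ± 0.39. The 9 G1 genes had a median of -0.05 and ranged from -1.27 (Cdk6) to 0.48 (Ccne2). The median was -0.73 without DKO HK15, -0.28 without control HK4 and -0.13 without DKO HK16.

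Inhibitors of CDKs showed no call in the Smad2/3 DKO (0 of 3 in edgeR, 0 at an unadjusted p under 0.05 and 0 in DESeq2). Cdkn1a stood at 402 and 354 CPM in control libraries, against 505 and 447 CPM in knockout libraries (0.27 ± 0.15, adjusted p = 0.485). Cdkn1b, which encodes p27, measured 29.3 and 18.4 CPM in control cells and 42.7 and 34.3 CPM in knockout cells (0.63 ± 0.30, adjusted p = 0.389). In both the knockouts lie above the controls. Cdkn2c, an inhibitor of CDK4 and CDK6, had control levels of 6.31 and 4.18 CPM and knockout levels of 3.88 and 8.52 CPM, which overlap (0.18 ± 0.53).

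Most replication genes lay on the other side from Mki67 without passing the test. Pcna stood at 196 and 170.2 CPM in control libraries, against 291 and 276 CPM in knockout libraries, a difference of 0.57 ± 0.16 that missed the threshold in edgeR (adjusted p = 0.114) and passed in DESeq2 (adjusted p = 0.0404). Tyms, which makes the thymidylate for DNA synthesis, measured 50.9 and 61.0 CPM in control cells and 66.7 and 81.2 CPM in knockout cells (0.35 ± 0.21, adjusted p = 0.534). Neither gene's groups overlap. Of the 10 replication genes, 0 passed in edgeR, 1 had an unadjusted p under 0.05 and 1 passed in DESeq2. The knockouts lay above the controls without overlap in 6 of the 10 (Mcm3, Mcm6, Pcna, Rrm1, Rrm2 and Tyms) and below them in 0, beside 25.5% and 18.9% of all genes. The differences ran from -0.92 to 0.73 with a median of 0.39, and 8 of the 10 were above 0. The median was 0.18 without DKO HK16, 0.21 without control HK4 and 0.59 without control HK3. The summed level was 355 and 322 CPM in control libraries, with 478 and 492 CPM in knockout libraries, and without Pcna 159.9 and 152 CPM against 187 and 217 CPM. These sums carry no test. The 6 genes of the MCM helicase did not share 1 direction, since Mcm4 and Mcm6 each differed by 0.56 and Mcm5 by -0.92 ± 0.53.

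**Figure D2:**
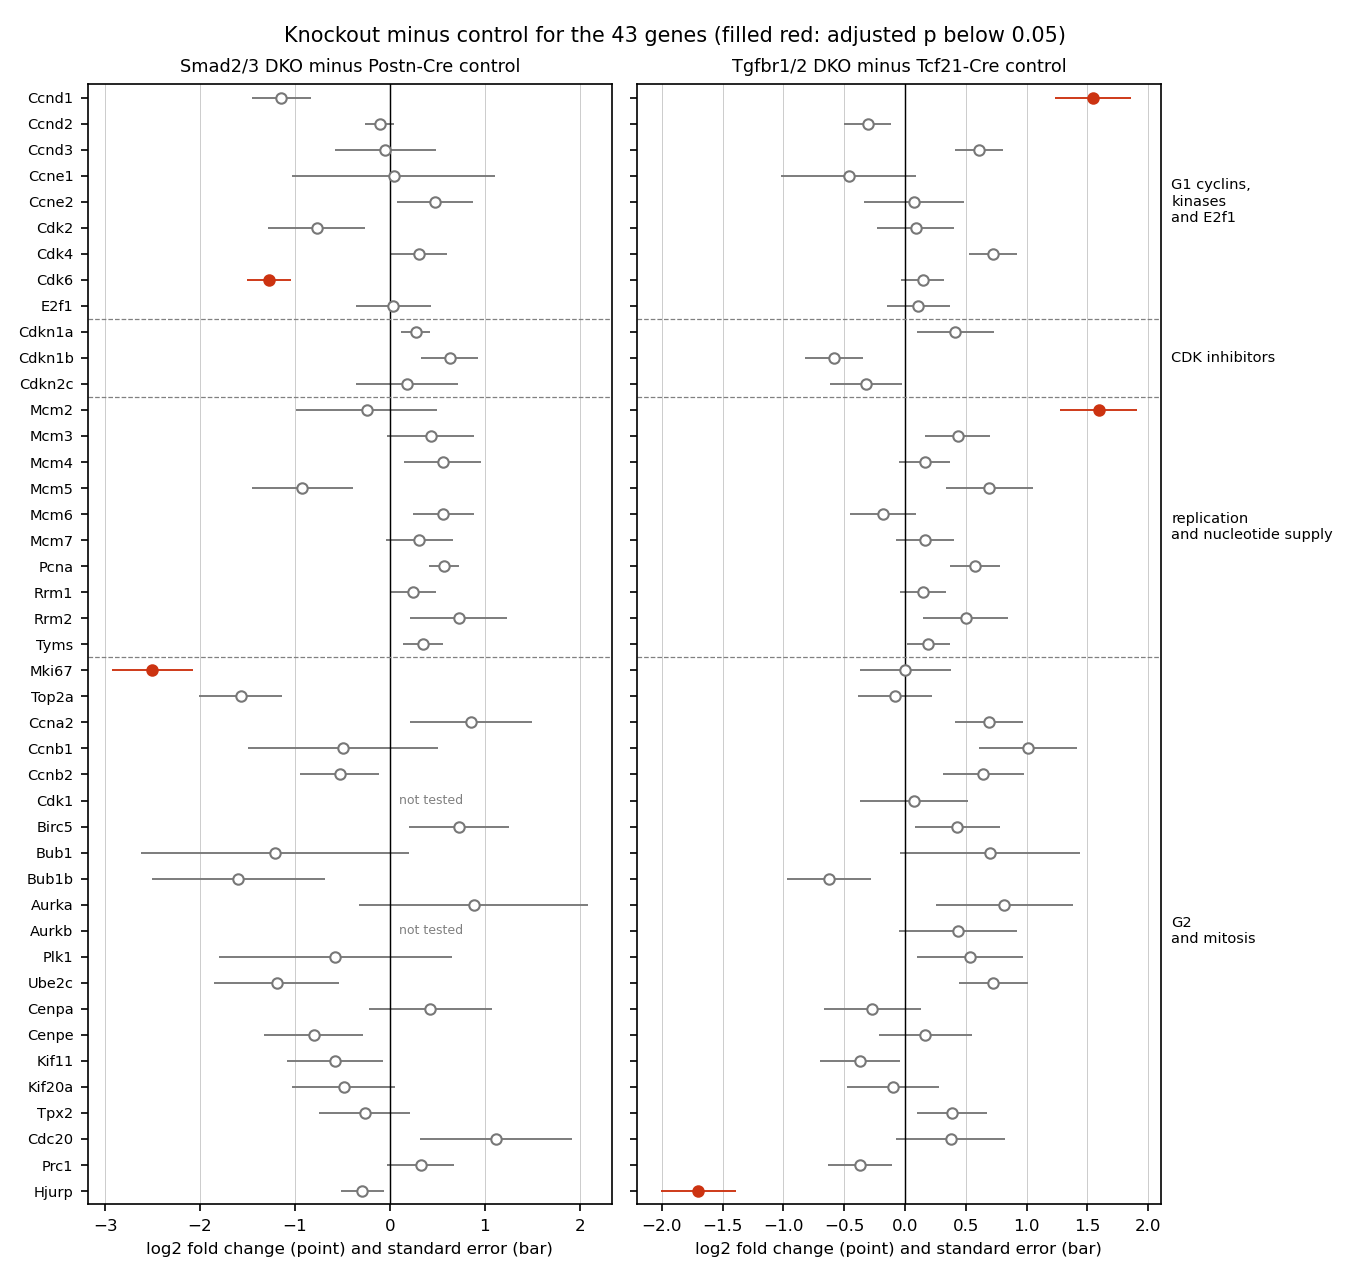
Log2 fold change (point) and standard error (bar) of each of the 43 genes in the Smad2/3 DKO against Postn-Cre controls (left) and the Tgfbr1/2 DKO against Tcf21-Cre controls (right), 2 libraries a group, with separate horizontal scales. Filled red points passed the adjusted p threshold of 0.05: Mki67 and Cdk6 on the left, and Ccnd1, Mcm2 and Hjurp on the right.

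Among the wider cell cycle lists, edgeR called 0 of 51 further replication genes, 0 of 61 further mitosis genes, 0 of 39 regulators of the RB, E2F and DREAM system and 0 of 21 replication-dependent histone genes in the Smad2/3 DKO. By unadjusted p under 0.05 the counts were 2, 4, 6 and 1, beside 13.6% of all genes, and DESeq2 called 0, 0, 1 (Mybl1) and 0. The medians were 0.26, -0.01, 0.06 and 0.02. Of 20 p53 targets 1 rose and 1 fell, beside 0.450% of all genes called higher and 0.856% called lower. Ddit4, an inhibitor of mTOR signalling, rose to 51.8 and 54.2 CPM in the knockouts over 15.6 and 14.4 CPM in control libraries (1.76 ± 0.25, adjusted p = 0.00574). Plk2, a Polo-like kinase, fell to 63.8 and 66.9 CPM in knockout libraries from control levels of 125 and 122 CPM (-0.98 ± 0.18, adjusted p = 0.0244), a call lost without control HK3, DKO HK15 or DKO HK16 (0.0516, 0.159 and 0.0630) and with all 8 libraries in 1 fit (0.171). The regulator Myc had control levels of 640.4 and 688 CPM and knockout levels of 777 and 879 CPM, short of the threshold (adjusted p = 0.481). Other abundant genes of these lists differed by -0.05 (Orc3), 0.12 (Orc4), 0.01 (Smc4), 0.65 (Tubb5) and 0.41 (Btg1), none past the threshold.

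Markers of other cell types also shifted in this comparison. The 9 endothelial markers summed to 450.4 and 234 CPM in the Postn-Cre controls and to 223 and 144 CPM in the Smad2/3 DKO. All 9 lay below 0, with a median of -1.57, and 5 were lower without overlap. In edgeR 0 were called, 5 had an unadjusted p under 0.05 and 1 was called in DESeq2. Of the 2 controls, HK3 had the higher endothelial sum, Mki67 and Ccnd1, while HK4 had the higher Cdk6, Top2a and E2f1. All 6 pericyte and smooth muscle markers lay below 0, with a median of -0.49 and 2 at an unadjusted p under 0.05. Only the pericyte gene Kcnj8 was called in edgeR, lower by 3.17 (adjusted p = 0.0174). It and Notch3 were the 2 that were lower without overlap. Notch3 dropped from 20.5 (HK3) and 23.1 CPM (HK4) to 13.5 (HK15) and 14.7 CPM (HK16). Cspg4 and Abcc9 were among those that overlapped. The fibroblast collagen genes Col1a1 and Col1a2 fell by 1.69 and 1.44, 2 of 9 fibroblast markers. Myeloid markers summed to 17.4 to 27.1 CPM, and C1qa was at 0 in all 4 libraries. The 6 cardiomyocyte markers summed to 190.0 and 173 CPM in the controls, against 119 and 119.9 CPM in the knockouts. Of these 6, 5 were lower without overlap, 0 were called in edgeR, 4 had an unadjusted p under 0.05 and 1 (Ttn) was called in DESeq2. Over all genes tested, 18.9% were lower without overlap, 13.6% had an unadjusted p under 0.05 and 0.856% were called lower in edgeR. With each library left out in turn, the log2 difference ran from -3.39 to -1.96 for Mki67 and from -1.45 to -1.11 for Cdk6. The part of other cells in these differences was not tested.

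In the Tgfbr1/2 DKO, compared with Tcf21-Cre controls, Ccnd1 and the helicase gene Mcm2 rose, and the chaperone gene Hjurp fell. Ccnd1 rose by 1.55 ± 0.31 on the log2 scale, Mcm2 by 1.59 ± 0.32, and Hjurp fell by 1.70 ± 0.31. All 43 genes were tested: 2 passed higher and 1 lower, with backgrounds of 2.63% called higher, 1.31% called lower and 3.94% in all among 16661 genes. By unadjusted p under 0.05, 8 of the 43 genes were higher and 2 lower, beside 1877 higher and 1453 lower of the 16661 genes. DESeq2, which called more genes in all than edgeR, called the same 3 of the 43. Each of the 3 calls depended on single libraries: without DKO HK4, 0 of the 43 were called.

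Ccnd1 (ENSMUSG00000070348, chr7:144929931-144939925, minus strand) was at 73.0 CPM in control HK6 and 34.6 CPM in HK7, and at 169.6 and 126 CPM in the Tgfbr1/2 DKO. Both knockouts lie above both controls (adjusted p = 0.0431), and the call was lost without control HK7 (0.0518), DKO HK2 (0.133) or DKO HK4 (0.0703), and also with library totals in place of scaling factors (0.0886) or all 8 libraries in 1 fit (0.0573). The difference stayed between 1.15 and 2.12 when each library was left out. Part of its exons (23.4%) is shared with LTO1 on the other strand, which was at only 5.91 to 10.1 CPM in these 4 libraries. Ccnd1 made up 22.1% and 11.9% of the D-type cyclin reads in the controls and 42.3% and 35.7% in the knockouts.

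The other D-type cyclins and their kinases did not pass. Ccnd2 stood at 199.6 and 215 CPM in control libraries, against 152 and 165 CPM in knockout libraries (-0.31 ± 0.19, adjusted p = 0.412). Ccnd3 measured 57.1 and 41.3 CPM in control cells and 79.3 and 62.6 CPM in knockout cells (0.61 ± 0.20, adjusted p = 0.120). Cdk4 had control levels of 47.8 and 60.3 CPM and knockout levels of 85.3 and 84.2 CPM (0.73 ± 0.20, adjusted p = 0.0761). In each the groups do not overlap, with Ccnd2 lower and Ccnd3 and Cdk4 higher in the knockouts. Tspan31, which shares 19.7% of the Cdk4 exon bases on the other strand, stood at 52.0 and 56.0 CPM in control libraries, against 81.8 and 83.3 CPM in knockout libraries, and since the libraries do not mark strand, reads from the shared bases cannot be told apart. Cdk6, which fell in the Smad2/3 DKO, measured 61.6 and 62.3 CPM in control cells and 65.4 and 64.3 CPM in knockout cells (0.15 ± 0.18, adjusted p = 0.700). Of the 9 G1 genes, 1 passed, and their differences ran from -0.46 to 1.55 with a median of 0.11, which was between 0.12 and 0.24 when a library was left out and highest without DKO HK4.

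None of the 3 inhibitors passed in edgeR or DESeq2, and 1 (Cdkn1b) had an unadjusted p under 0.05. Cdkn1a had control levels of 587 and 687 CPM and knockout levels of 572 and 1016 CPM, which overlap (0.41 ± 0.32). Cdkn1b stood at 40.6 and 55.6 CPM in control libraries, against 36.5 and 25.0 CPM in knockout libraries, without overlap (-0.58 ± 0.24, adjusted p = 0.211). Cdkn2c measured 10.3 and 15.5 CPM in control cells and 10.6 and 9.19 CPM in knockout cells (-0.32 ± 0.29).

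Mcm2 (ENSMUSG00000002870, chr6:88883474-88898780, minus strand), a subunit of the replicative helicase, was at 3.60 and 5.17 CPM in the Tcf21-Cre controls and at 13.4 and 11.8 CPM in the Tgfbr1/2 DKO. These are 105, 151, 436 and 354 counts, and the groups do not overlap (adjusted p = 0.0234). The call was lost without control HK6 (0.0680), DKO HK2 (0.0538) or DKO HK4 (0.0638), and with all 8 libraries in 1 fit (0.112). Its partners did not pass: Mcm3 differed by 0.44 ± 0.27, Mcm5 by 0.69 ± 0.36, Mcm4 by 0.16 ± 0.21, Mcm7 by 0.17 ± 0.24 and Mcm6 by -0.18 ± 0.27. Pcna had control levels of 149 and 132 CPM and knockout levels of 174 and 219 CPM, without overlap (0.57 ± 0.21, adjusted p = 0.155). Tyms stood at 55.6 and 51.9 CPM in control libraries, against 60.8 and 55.4 CPM in knockout libraries, which overlap (0.19 ± 0.18). The 10 replication genes had a median of 0.31 (0.20 without control HK6), with 9 above 0. In 5 of them the knockouts lay above the controls without overlap and in 1 below, beside 21.8% and 29.4% of all genes tested.

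Hjurp (ENSMUSG00000044783, chr1:88262471-88277633, minus strand) measured 38.7 and 66.9 CPM in control cells and 18.4 and 12.9 CPM in knockout cells. Both knockouts lie below both controls (adjusted p = 0.0236), and the call was lost without control HK7 (0.0589) or DKO HK4 (0.0938). The neighbouring gene Mroh2a had control levels of 12.3 and 22.8 CPM and knockout levels of 4.76 and 4.18 CPM. The Ugt1a cluster, which ends 42.5 kb from Hjurp, summed to 4.83 and 4.45 CPM in control libraries, with 87.1 and 76.3 CPM in knockout libraries, the opposite direction. Cenpa, the histone that Hjurp loads, stood at 4.11 and 3.76 CPM in control libraries, against 3.87 and 2.37 CPM in knockout libraries (-0.27 ± 0.40).

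Mki67 was at 50.7 and 20.8 CPM in the Tcf21-Cre controls and at 31.9 and 34.7 CPM in the Tgfbr1/2 DKO. The knockouts lie between the controls, with a difference of 0.00 ± 0.37 (adjusted p = 0.998). Top2a showed the same order, at 23.5 and 11.7 CPM in control libraries, with 14.97 and 16.03 CPM in knockout libraries (-0.08 ± 0.31). Of the 21 mitosis genes 1 passed (Hjurp), and 14 were above 0, with a median of 0.38 and the highest value in Ccnb1. That median was 0.02 without control HK7, 0.12 without DKO HK4, 0.26 without DKO HK2 and 0.61 without control HK6. In 5 (Ccna2, Ccnb1, Ccnb2, Birc5 and Ube2c) the knockouts lay above the controls without overlap, and in 2 (Bub1b and Hjurp) below, beside 21.8% and 29.4% of all genes. Ube2c, the ubiquitin-conjugating enzyme of the anaphase-promoting complex, measured 12.4 and 7.36 CPM in control cells and 16.3 and 14.5 CPM in knockout cells (0.73 ± 0.28, adjusted p = 0.188). Control HK6 was above HK7 for Mki67 and Top2a, and the summed level of the 21 genes was 236 and 185 CPM in control libraries, with 181 and 173 CPM in knockout libraries. Without Mki67 and Hjurp it was 146 and 97.0 CPM against 131 and 126 CPM, which overlap.

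**Figure D3:**
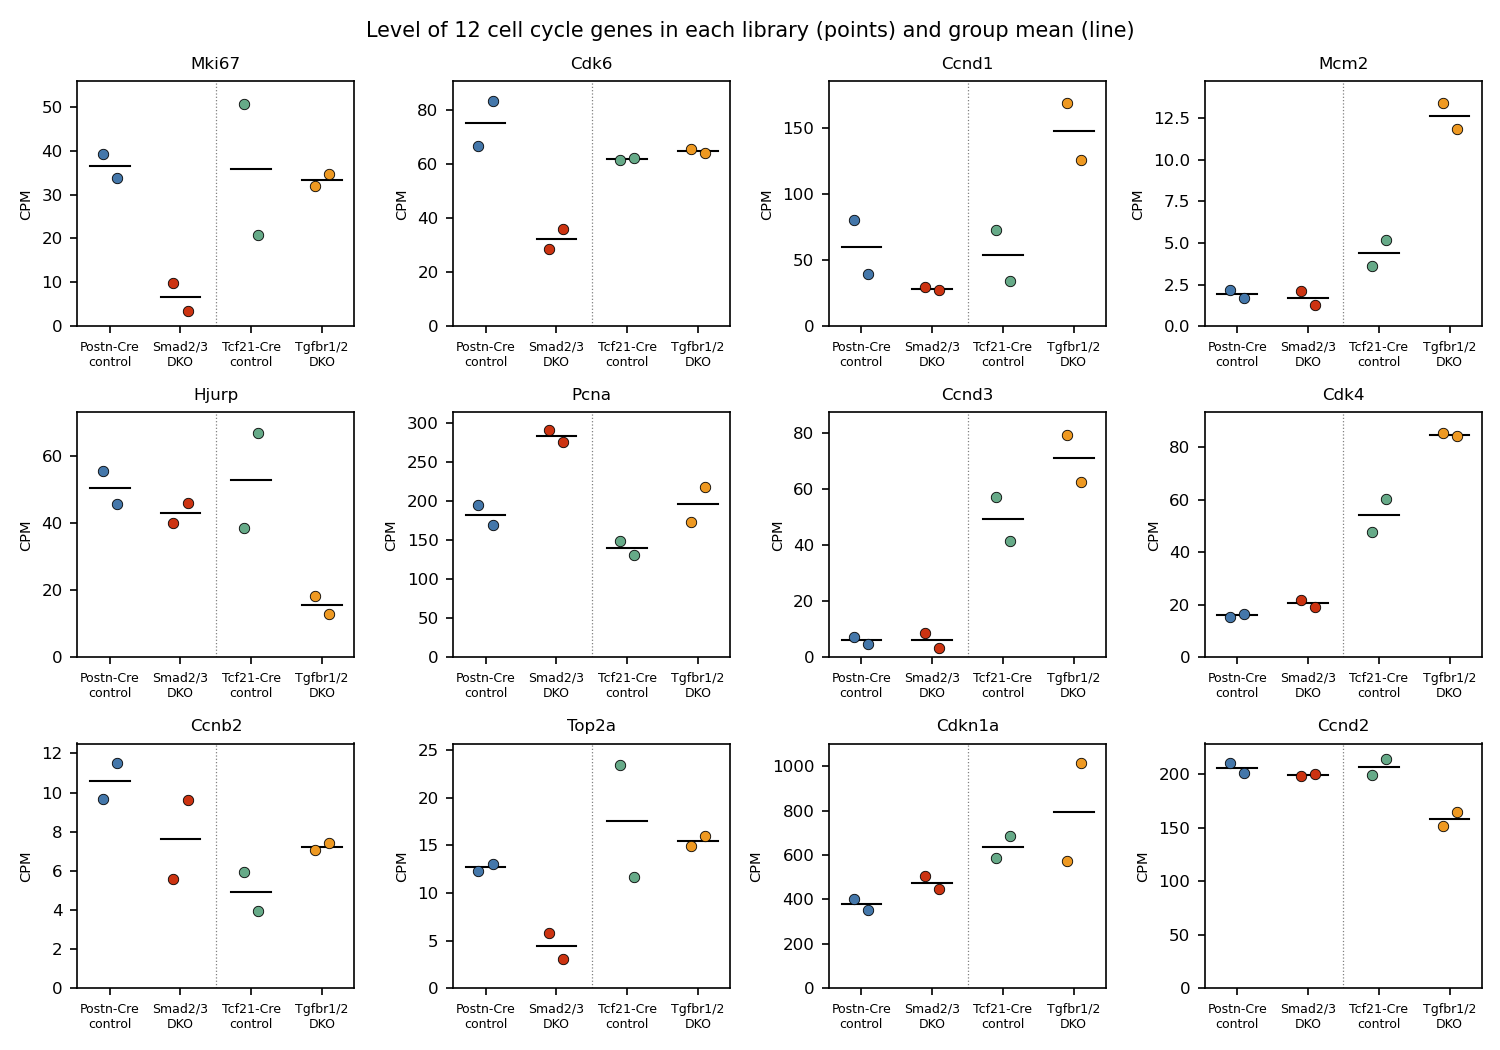
CPM (vertical axes, from 0) of 12 of the genes in each of the 8 libraries (points, 2 a group) with the group mean (line), where the dotted line divides the runs. Mki67 and Cdk6 are lowest in the Smad2/3 DKO, Ccnd1 and Mcm2 are highest and Hjurp lowest in the Tgfbr1/2 DKO, and Ccnd3 and Cdk4 are low in both Postn-Cre groups.

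Outside the 43, 1 of 53 further replication genes passed in the Tgfbr1/2 comparison: Uhrf1, which keeps DNA methylation through replication, rose to 15.9 and 11.6 CPM in the knockouts over 4.14 and 4.11 CPM in control libraries (1.81 ± 0.29, adjusted p = 0.0102), called without each library in turn but not with all 8 libraries in 1 fit (0.0747). The condensin gene Smc4 was the 1 further mitosis gene of 76 that passed, lower (-0.78, adjusted p = 0.0482, lost without any 1 of the 4 libraries). Tfdp2, a dimer partner of E2F factors, was the 1 of 40 regulators, with control levels of 55.3 and 54.0 CPM and knockout levels of 28.2 and 27.9 CPM (-0.88, adjusted p = 0.0304, also lost without any 1 library). Trp53inp1 was the 1 of 22 p53 targets, lower by 1.19 (adjusted p = 0.0250, lost without HK7 or DKO HK4). Of 48 histone genes tested 1 passed, Hist3h2a, at 9.76 and 9.65 CPM against 3.31 and 2.30 CPM (adjusted p = 0.0217, lost without HK7 or DKO HK4). Each of these lists thus held 1 call, and over all genes tested 3.94% were called, 2.63% higher and 1.31% lower. DESeq2 also called Pole2, Cks1b and Tubb5 higher and Gas1 lower. The medians of these lists were 0.17, 0.13, -0.09, -0.10 and 0.18, beside -0.01 for all genes.

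Myeloid and endothelial markers moved with this comparison. The 9 myeloid markers summed to 43.4 and 63.6 CPM in the Tcf21-Cre controls and to 161 and 167 CPM in the Tgfbr1/2 DKO. Of the 9, 3 rose (Cd14 by 1.86, Csf1r by 1.34 and Emr1 by 2.46), beside 2.63% of all genes called higher. Against 21.8% of all genes, the knockouts lay above the controls without overlap in 8 of the 9 markers. Lyz2, their most abundant member, had control levels of 9.90 and 26.6 CPM and knockout levels of 82.5 and 90.6 CPM, while Ptprc was at only 0.890 to 2.07 CPM. The 9 endothelial markers summed to 442 and 397 CPM in the controls, against 529 and 506 CPM in the knockouts, and 7 of them were higher without overlap. Eng rose by 0.78 (adjusted p = 0.0423), 5 of the 9 had an unadjusted p under 0.05, and DESeq2 called 2 (Eng and Vwf). The part of these cells in the Ccnd1, Mcm2 and Hjurp differences was not tested.

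Whether the knockouts differ from each other was tested as an interaction over all 8 libraries. The Smad2/3 effect minus the Tgfbr1/2 effect was -2.70 ± 0.50 for Ccnd1 (adjusted p = 0.0259) and -1.43 ± 0.28 for Cdk6 (adjusted p = 0.0317), and these 2 of the 43 passed, both lower, beside 1.83% of 17772 genes called, 0.664% higher and 1.17% lower. For Ccnd1 both Smad2/3 DKO libraries lay below their controls and both Tgfbr1/2 DKO libraries above theirs. The difference for Mki67 was -2.51 ± 0.63 and did not pass in edgeR (adjusted p = 0.0754), while DESeq2 called it (adjusted p = 0.00117). Hjurp differed by 1.40 ± 0.41 (adjusted p = 0.112) and Mcm2 by -1.84 ± 0.63 (adjusted p = 0.169). Pcna had the same value, 0.57, in both knockouts, and its difference was -0.01 ± 0.27. The Ccnd1 call was lost without any of 6 of the 8 libraries (adjusted p from 0.0526 to 0.0874), and the Cdk6 call without any of 7 (0.0590 to 0.123). Of the 43 genes, 2 were higher and 8 lower by unadjusted p under 0.05, beside 1405 higher and 1686 lower of all 17772 genes (17.4% together). DESeq2, which called more genes in all than edgeR, called 1 higher (Hjurp) and 4 lower (Ccnd1, Cdk6, Mki67 and Ube2c). In the lists of further replication, mitosis, regulator, p53 and histone genes edgeR called 0, with 4, 12, 7, 6 and 4 at an unadjusted p under 0.05 and 3, 2, 3, 4 and 1 in DESeq2. Myeloid markers moved here too, with 0 of 9 called in edgeR, 7 at an unadjusted p under 0.05 and 5 in DESeq2. Of the 9 endothelial markers 1 was called, Eng at -1.71 (adjusted p = 0.0151), with 8 at an unadjusted p under 0.05 and 3 in DESeq2. All 6 pericyte and smooth muscle markers were below 0, with 2 at an unadjusted p under 0.05 and 2 in DESeq2 (Kcnj8 and Notch3). In edgeR only Kcnj8 was called, at -3.89 (adjusted p = 0.0215). The part of these cells in the Ccnd1 and Cdk6 values was not tested. Driver and run also differ between these knockouts, so the gene deleted, the cells marked and the run cannot be told apart.

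The Postn-Cre and Tcf21-Cre controls differed in 33.9% of 16573 genes. In the Postn-Cre controls 1 fibroblast marker was higher and 3 lower of 9, and 2 endothelial markers higher and 1 lower of 9. Of 8 myeloid markers 2 were lower, and of 6 pericyte and smooth muscle markers 1 was higher. That 1 was Rgs5, at 1201 and 607 CPM against 434 and 222 CPM in the Tcf21-Cre controls. The part of other cells in the differences between these controls was not tested. Of the 43, 2 were higher and 2 lower in the Postn-Cre controls, beside 16.6% and 17.3% of all genes. Without overlap, 5 of the 43 lay higher and 22 lower, beside 23.6% and 47.8% of all genes. Ccnd3 was at 7.12 and 4.87 CPM in the Postn-Cre controls and at 57.1 and 41.3 CPM in the Tcf21-Cre controls (-2.69 ± 0.31, adjusted p = 0.00186). Cdk4 was at 15.5 and 16.5 CPM against 47.8 and 60.3 CPM (-1.42 ± 0.24, adjusted p = 0.00534). Both calls held without each library in turn. Exons of Ccnd3 share 4.11% of their bases with Bysl. Tspan31, which overlaps Cdk4, had 18.2 and 19.4 CPM against 52.0 and 56.0 CPM. The knockouts lay near the controls of their own driver and run, with Ccnd3 at 8.62 and 3.49 CPM in the Smad2/3 DKO and at 79.3 and 62.6 CPM in the Tgfbr1/2 DKO.

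Pcna was higher in the Postn-Cre controls by 0.72 ± 0.18 (adjusted p = 0.0201), and so was Ccnb2, a mitotic cyclin, at 9.65 and 11.5 CPM against 5.93 and 3.94 CPM (1.45 ± 0.37, adjusted p = 0.0227). In the knockouts Ccnb2 measured 5.60 and 9.64 CPM in the Smad2/3 DKO and 7.06 and 7.42 CPM in the Tgfbr1/2 DKO. The Pcna call was lost without HK3 (0.101) or HK7 (0.0617), and the Ccnb2 call without HK6 (0.0505) or HK7 (0.175). With library totals in place of scaling factors the median of all genes moved from -0.07 to -0.41, and among the 43 genes 0 were then called higher and 9 lower. Ccnb2 and Pcna then differed by 1.10 and 0.38, both above that median, and neither was called (adjusted p = 0.0623 and 0.160). Mki67 differed by 0.38 ± 0.37, and Ccnd1 by 0.52 ± 0.41. The signs of both turned when 1 control library was left out (Mki67 -0.11 without HK7, Ccnd1 -0.12 without HK3).

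Replication-dependent histone genes, whose messages lack a poly(A) tail and peak in S phase, set the runs apart. Of 45 tested, 1 was higher and 19 were lower in the Postn-Cre controls, with a median of -2.21 (-2.20 with 5 genes at a bound set by 3 counts). Hist1h4d was at 2.77 and 0.740 CPM against 46.1 and 71.2 CPM (-4.71, adjusted p = 0.00218). Summed over 70 genes the histones gave 55.6 and 64.8 CPM in the Postn-Cre controls, 68.5 and 75.0 CPM in the Smad2/3 DKO, 181 and 227 CPM in the Tcf21-Cre controls, and 207 and 164 CPM in the Tgfbr1/2 DKO. Histone genes are near-identical copies, so reads may have been divided among them. Mki67, at 39.2 and 33.8 CPM in the Postn-Cre controls and 50.7 and 20.8 CPM in the Tcf21-Cre controls, overlapped between the runs. Of the other lists, 4 replication genes were higher and 7 lower of 51, 5 mitosis genes higher and 6 lower of 74, 8 regulators higher and 4 lower of 40, and 8 p53 targets higher and 4 lower of 22, beside 33.9% of all genes called. Among them were the antiproliferative gene Btg2, at 37.9 and 33.5 CPM against 419 and 715 CPM, the tubulin gene Tubb5, at 47.4 and 32.0 CPM against 272 and 318 CPM, and the MuvB subunit gene Lin54, at 80.2 and 77.4 CPM against 26.9 and 25.3 CPM. Run and driver cannot be told apart in this comparison. Postn itself was at 208 and 186 CPM in the Postn-Cre controls and at 1615 and 3076 CPM in the Tcf21-Cre controls.

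**Figure D4:**
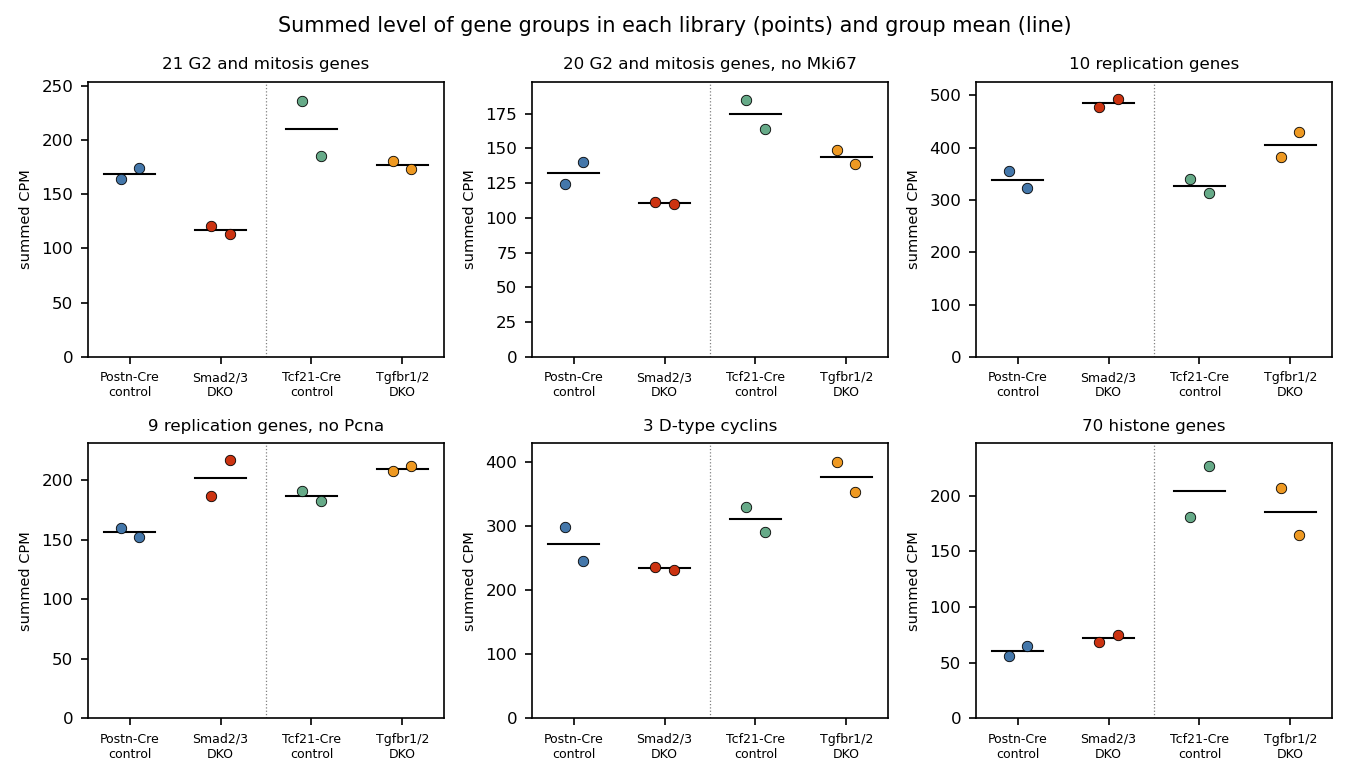
Summed CPM (vertical axes, from 0) of 6 gene groups in each of the 8 libraries (points, 2 a group) with the group mean (line), where the dotted line divides the runs. The mitosis sum is lowest and the replication sum with Pcna highest in the Smad2/3 DKO, and the histone sum divides the runs, at 55.6 to 75.0 CPM in the Postn-Cre groups and 164 to 227 CPM in the Tcf21-Cre groups. Without Pcna the replication sum is 187 and 217 CPM in the Smad2/3 DKO and 207 and 212 CPM in the Tgfbr1/2 DKO, which overlap.

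The authors' deposited table of log2 fold changes gave values of the same sign for the called genes, -1.85 for Mki67 and -1.21 for Cdk6 in the Smad2/3 DKO, and 1.54 for Ccnd1, 1.54 for Mcm2 and -1.73 for Hjurp in the Tgfbr1/2 DKO. In the authors' deposited table Top2a stood at -0.50 in the Smad2/3 DKO, and 9 of the 43 genes in that knockout and 4 in the other were listed at 0 (within 1e-06).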

How the data were processed

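RNA was amplified (Ovation RNA-Seq v2) and made into libraries by Nextera XT tagmentation, per the labels' protocols, a method that does not mark strand. The authors made and deposited 2 tables of estimated counts per Ensembl gene, 1 for each run, with 38087 rows each. The submitters' processing notes name the build mm10. Which aligner and counter were used, and how reads with several matches were treated, is not given in the sources used here. In addition, the authors deposited log2 fold changes between their normalized values, which were only set beside the fitted values. Another 16 normalized columns were not used.

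Counts were rounded and summed by gene symbol. Levels are CPM by library total. Each comparison was tested with edgeR 4.0.16 (TMM scaling, filterByExpr, robust quasi-likelihood F test) under R 4.3.3, with Benjamini-Hochberg adjustment over all genes tested and a threshold of 0.05. Knockouts were fitted with their own controls and the difference between knockouts with all 8 libraries. The fits were tested on data simulated with the spread estimated from these same libraries, so the simulation does not check that spread. Alternatives were DESeq2 1.42.0, RLE size factors, no low-count filter, no robust estimation, rows not summed, all libraries in 1 fit, each library left out and, added after seeing the data, library totals without scaling factors. The members and lists were chosen with earlier results of these data known. Values were given in every library for genes called in any comparison, for Mki67, the D-type cyclins and the CDK inhibitors, and for the 2 genes with the highest mean in each role. Of each further list the called genes were named, or else its most abundant ones. Exon lengths, positions and overlapping genes came from GENCODE vM21 (GRCm38) and promoters from RefSeq.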

Additional observations from a re-analysis of the deposited data

Results flagged for a closer look

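For 2 of the 43 genes the test of the difference between the knockouts passed. The Smad2/3 effect minus the Tgfbr1/2 effect was -2.70 on the log2 scale for Ccnd1 and -1.43 for Cdk6. The Ccnd1 value joins a difference of -1.14 in the Smad2/3 DKO, which did not pass on its own, and a rise of 1.55 in the Tgfbr1/2 DKO. The Cdk6 value joins a fall of 1.27 and a difference of 0.15.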

How the results depend on the processing

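Of 565 alternative values for 50 pairs of a gene and a comparison, 481 kept direction and side of the threshold, 52 lost the call, 17 gained it and 15 changed sign. Without the low-count filter and in DESeq2, the genes called were 819 and 746 in the Smad2/3 comparison (206 in edgeR), 1198 and 1074 in the Tgfbr1/2 comparison (657) and 1190 and 1118 for the difference between knockouts (326). Among the 43 genes both gave 1 higher and 4 lower in the Smad2/3 comparison. For the difference between knockouts they gave 2 higher and 5 lower without the filter and 1 and 4 in DESeq2. With all 8 libraries in 1 fit the Tgfbr1/2 comparison called 299 genes and 0 of the 43 higher, and library totals left 1 higher. Between the controls the 43 genes gave 0 higher and 9 lower with library totals, 4 and 4 in DESeq2, and 4 and 5 in the fit of all libraries. The cause was not tested.

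Leaving out 1 library at a time, with the lone library assumed to vary like the other group, gave 100 to 288 genes for Smad2/3, 273 to 492 for Tgfbr1/2, 89 to 294 for the difference and 3164 to 6818 between controls. Of the 43 genes, 1 to 3 were then lower for Smad2/3, 0 to 1 higher and 0 to 1 lower for Tgfbr1/2, 0 to 1 higher and 0 to 2 lower for the difference, and 0 to 5 higher and 2 to 7 lower between controls.

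Signs turned only for genes that had not passed. In the Smad2/3 comparison Ccnd3 was at 0.016 with library totals and ran from -0.83 to 0.45 with a library left out, and Cdkn2c from -0.50 to 0.65. In the Tgfbr1/2 comparison Mki67 was at -0.0033 with RLE size factors and -0.10 with library totals, and ran from -0.46 to 0.72. Top2a ran from -0.45 to 0.45, Cdkn1a from -0.14 to 0.83 and Cdkn2c from -0.62 to 0.077. Between controls Mki67 ran from -0.11 to 1.09 and Ccnd1 from -0.12 to 1.08.

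No paired analysis was possible because the groups compared share no replicate number within a run, and HK4 recurs only across runs. With 2 libraries a group, and with 11 of 21 mitosis genes below 10 CPM in every library, small changes were not detectable at this depth.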
